A study of Rattus norvegicus with 24 samples.

Results

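The striated muscle miRNAs described here are rno-miR-1-3p, rno-miR-133a-3p, rno-miR-133b-3p and rno-miR-499-5p, which are 4 of the 719 rat miRNAs on the array and 4 of the 283 that could be tested. They were taken by their names in the scanner files, and the choice of these names was made with earlier results of these data known. They were measured in the lung total RNA of 24 Fischer-344 rats, 1 single-colour miRNA array per rat. The rats were 7 to 8 weeks old and carried no genetic modification that the labels name. Each of 4 groups held 3 males and 3 females, so 6 rats: controls exposed to clean, filtered air only, and groups that inhaled hexanal, a short-chain aldehyde found in indoor air, at concentrations labelled 600 ppm, 1000 ppm and 1500 ppm, for 4 h per day on 5 days per week over 5 weeks. The protocol text gives the same numbers in mg per cubic metre, so ppm is used here as the name of a group. Each array came from 1 rat, and p-values therefore measure the spread between arrays of different rats. Where no term for sex or slide was fitted, this spread also includes differences between the sexes and between the slides that held the arrays.

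miR-1, miR-133a and miR-133b are known for being made in heart and skeletal muscle, where the precursors of miR-1 and miR-133 are transcribed together. In muscle cells miR-1 is known for promoting differentiation and miR-133 for acting on proliferation. miR-206, a close relative of miR-1, belongs to skeletal muscle, and its precursor lies beside that of miR-133b. miR-208a, miR-208b and miR-499 are encoded inside the myosin heavy chain genes Myh6, Myh7 and Myh7b. Lung is not a striated muscle tissue, but in rodents a sleeve of heart muscle cells runs along the pulmonary veins into the lung, and a dissected lung can hold it. In tissue RNA, fewer cells of a type and less RNA per cell cannot be told apart.

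The mature sequences, from RefSeq with the GRCr8 build, are shown because close relatives decide what a probe can separate. They run 5′ to 3′, with the seed (bases 2 to 8, the part that pairs with a target) in capitals. All 4 members matched an entry, and the last 4 lines are relatives from heart or skeletal muscle.
rno-miR-1-3p: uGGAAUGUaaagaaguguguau
rno-miR-133a-3p: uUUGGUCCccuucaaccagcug
rno-miR-133b-3p: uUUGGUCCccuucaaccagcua
rno-miR-499-5p: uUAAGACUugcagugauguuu
rno-miR-206-3p: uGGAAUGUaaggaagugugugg
rno-miR-1b: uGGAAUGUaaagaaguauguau
rno-miR-208a-3p: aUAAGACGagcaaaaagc
rno-miR-208b-3p: aUAAGACGaacaaaaggu

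The seeds fall into groups. miR-133a-3p and miR-133b-3p share the seed UUGGUCC and were identical at 21 of 22 bases, with the single difference G22A counted from the 5′ end, so signal on the probes of one may include molecules of the other. miR-1-3p shares the seed GGAAUGU with miR-206-3p, from which it differed by A11G, A21G and U22G, and with miR-1b, from which it differed by G17A. miR-1b was not on the array under that name, and its contribution to the miR-1-3p signal was not tested. miR-499-5p was the only member of its seed among the tested miRNAs that had a sequence (249 of 283). In the RefSeq annotation the hairpins Mir1 and Mir133a1 lie close to each other within Mib1, Mir206 lies beside Mir133b, and Mir499a lies within Myh7b.

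The arrays lay on 3 slides of 8. Slide 1 held only males and slide 3 only females, while slide 2 held 4 arrays of each sex, and the 3 males at 1500 ppm were all on slide 2 and the 3 females at 1500 ppm all on slide 3. The 75th percentile of probe intensity used for scaling was between 662 and 1226 over the arrays, and between 221 and 306 miRNAs were detected per array. Most listed endothelial, smooth muscle and epithelial markers were present. Endothelial miR-126a-3p and miR-126a-5p and all 5 epithelial miRNAs of the miR-200 family were detected on 24 of 24 arrays. The same held for smooth muscle miR-143-3p, miR-143-5p and miR-145-5p. Of the same lists, endothelial miR-126b was detected on 0 arrays and smooth muscle miR-145-3p on 7, all on slide 1.

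Detection separated the members. miR-133b-3p and miR-499-5p had at least 1 probe well above background on 24 of 24 arrays, miR-133a-3p on 21 and miR-1-3p on 18. The opposite arms miR-1-5p, miR-133a-5p, miR-133b-5p and miR-499-3p were detected on 0 arrays. Of the other 12 striated muscle miRNAs listed, 10 were on the array and 1 was tested. The skeletal muscle miRNA miR-206-3p was detected on 0 arrays, as were miR-208a-3p and miR-208b-3p, the mature arms from the heart myosin genes. The tested one, miR-208a-5p, was detected on 10 arrays with levels from 3.50 to 3.76, just above the floor of 3.50. Hence, of the defining striated muscle miRNAs, miR-1-3p, both miR-133 3p arms and miR-499-5p were measured, and miR-206-3p, miR-208a-3p and miR-208b-3p were at the floor.

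Levels are given on the log2 scale after scaling each array to the same 75th percentile and are comparable between arrays for 1 miRNA, not between miRNAs. miR-1-3p had the widest spread. In the control group its lowest, median and highest levels were 3.50, 4.38 and 6.21, and it was detected in 4 of 6 rats. At 600 ppm these were 3.51, 5.17 and 6.97 with 5 rats detected, at 1000 ppm 3.80, 6.71 and 8.40 with 6 rats detected, and at 1500 ppm 3.50, 4.43 and 8.23 with 3 rats detected. All 4 groups overlapped, and each held rats at or near the floor as well as rats well above it. Rats without a detected level have only an upper bound there, and flooring them can move a difference between groups either way.

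miR-133b-3p was the member with the most secure signal, with the kept probes averaging 102 to 952 intensity units before scaling. Its lowest, median and highest levels were 7.01, 7.24 and 8.11 in the control group. They were 7.00, 7.67 and 8.63 at 600 ppm, 7.30, 8.48 and 9.83 at 1000 ppm, and 6.72, 7.36 and 9.64 at 1500 ppm. The highest rat of the whole study, female 33 at 1000 ppm, stood 3.11 log2 units (8.65-fold) above the lowest, male 18 at 1500 ppm. The same groups that held the highest rats also held rats at control levels.

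miR-133a-3p followed at lower signal and rests on 1 probe, since its other probe was above background on 1 array. The lowest, median and highest levels were 3.83, 4.16 and 5.11 in the control group, 3.94, 4.55 and 5.67 at 600 ppm, 4.15, 5.29 and 6.41 at 1000 ppm, and 3.54, 4.06 and 6.25 at 1500 ppm. The rats with the highest and lowest level were the same as for miR-133b-3p. The groups overlapped here too.

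miR-499-5p, the myosin-encoded member, varied over a much narrower range. The lowest, median and highest levels were 4.35, 4.59 and 4.99 in the control group, 4.26, 4.80 and 5.01 at 600 ppm, 4.58, 5.01 and 5.38 at 1000 ppm, and 4.06, 4.46 and 4.91 at 1500 ppm. From lowest to highest rat this is 1.32 log2 units (2.50-fold), against 4.90 log2 units for miR-1-3p, whose lower end is the floor. Its 2 probes correlated at r = 0.67 over the arrays, compared with 0.953 for those of miR-1-3p and 0.879 for those of miR-133b-3p.

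**Figure D1:**
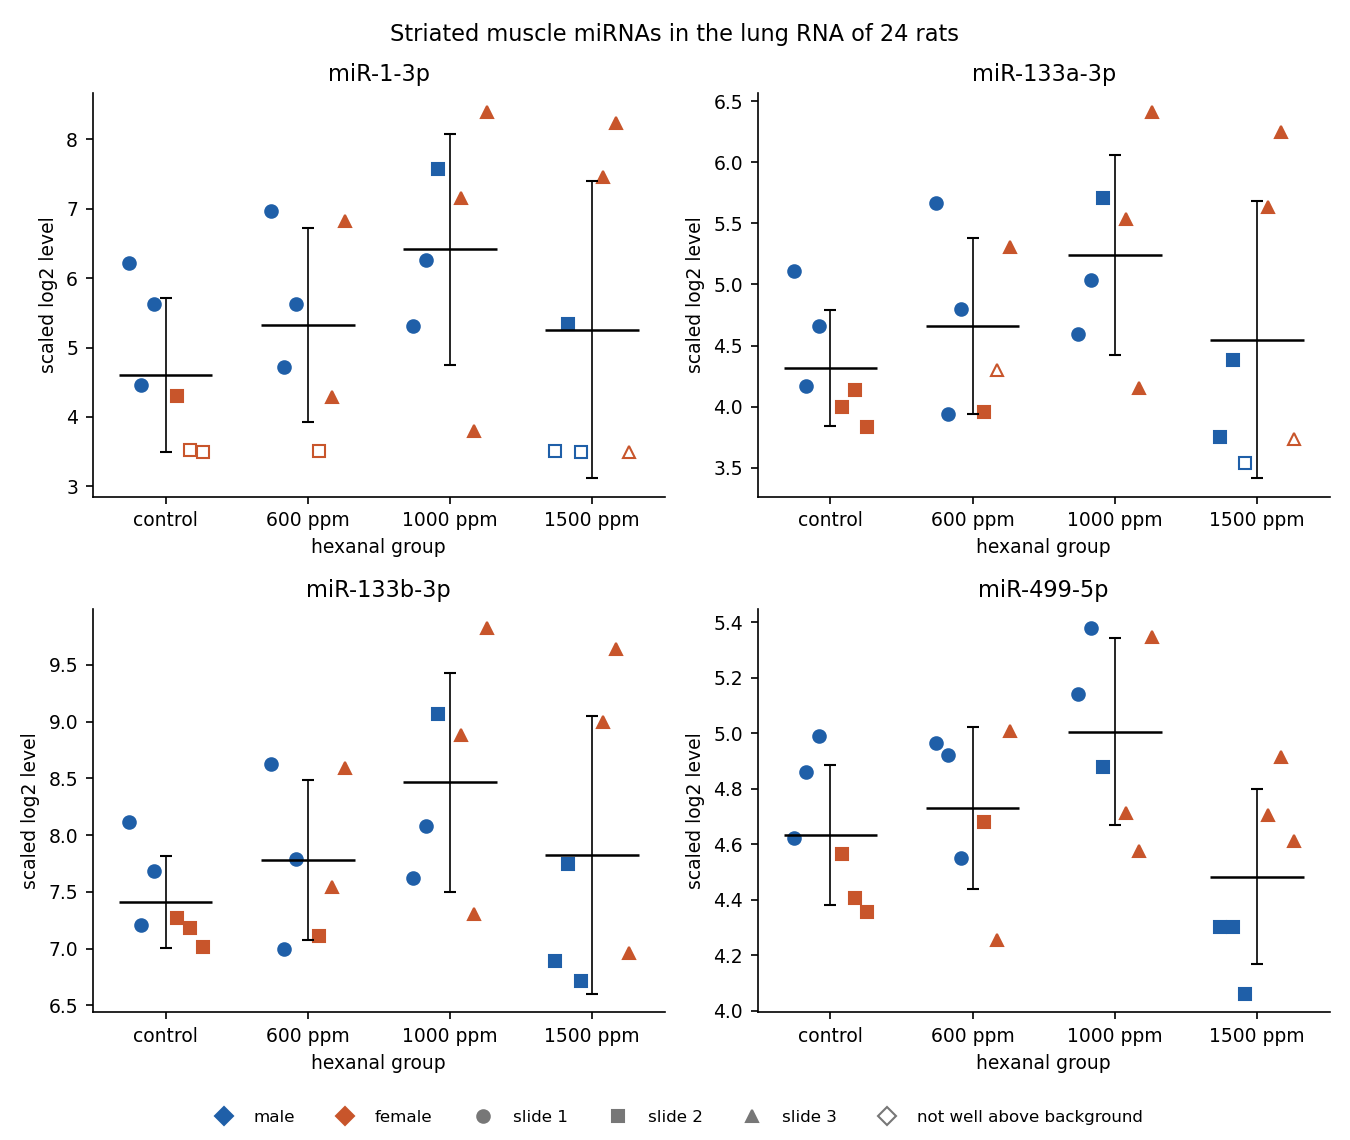
Scaled log2 level of each member in every rat, by hexanal group. Colour gives sex, symbol shape the slide, and open symbols mark arrays on which no probe of the miRNA was well above background; horizontal lines and bars are group means ± SD (n = 6). The 4 groups overlap for each member, and the highest levels of miR-1-3p, miR-133a-3p and miR-133b-3p are in some of the rats at 1000 and 1500 ppm.

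Among rats of the same group, 3 of the members were among the miRNAs with the widest spread. The within-group SD of miR-1-3p was 1.62 log2 units, which ranked 1 of the 283 miRNAs tested. miR-133b-3p ranked 3 with an SD of 0.88 and miR-133a-3p ranked 4 with 0.82, while the median of all tested miRNAs was 0.18. miR-499-5p, with an SD of 0.30, ranked 63. These ranks are a description without a test. With slide as a block the SDs were 1.55, 0.83, 0.78 and 0.26, and the ranks in the same order of members were 1, 2, 5 and 50. The median SD among the 10 spots of a probe on one array, where detected, was at most 0.117 log2 units over the kept probes of miR-1-3p, miR-133a-3p and miR-133b-3p, and was 0.107 and 0.171 for those of miR-499-5p. This covers spot noise only, not labelling or hybridization.

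**Figure D2:**
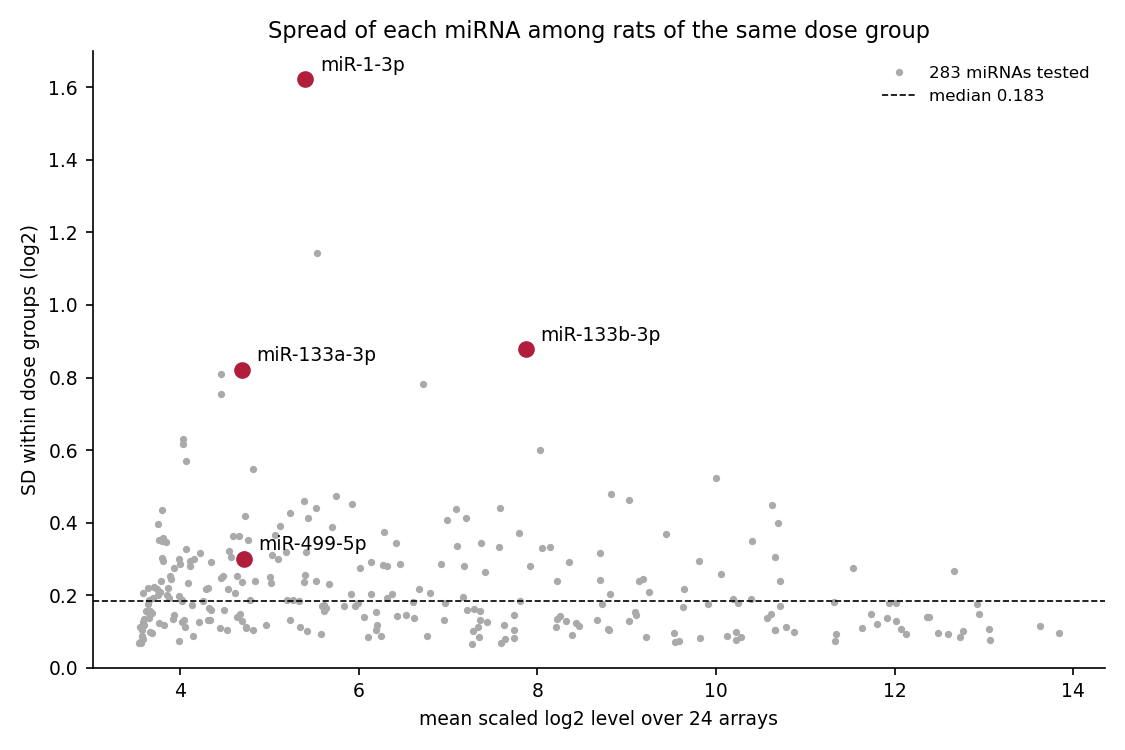
SD within dose groups against mean scaled log2 level for the 283 miRNAs tested, with the 4 members marked. miR-1-3p has the highest SD of all, miR-133b-3p and miR-133a-3p lie at 0.88 and 0.82, and miR-499-5p lies at 0.30 nearer the dashed median of 0.18.

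miR-1-3p and both miR-133 members moved together from rat to rat. Over 24 arrays, miR-1-3p correlated with miR-133a-3p at Pearson r = 0.976 (Spearman rho = 0.963) and with miR-133b-3p at r = 0.969 (rho = 0.953). Each of these had a permutation p of 1e-05, the smallest that 100000 permutations can give, for both r and rho, and an adjusted p of 0.00323 for r and 0.00377 for rho over the 1130 relations computed. Without the 2 arrays farthest from the median of miR-1-3p these r were 0.968 and 0.962. Within slides 1, 2 and 3, r was 0.974, 0.952 and 0.990 for miR-133a-3p and 0.977, 0.978 and 0.991 for miR-133b-3p. miR-133a-3p and miR-133b-3p correlated at r = 0.989 (rho = 0.989, permutation p = 1e-05, adjusted p = 0.00323 for r and 0.00377 for rho). Their sequences differ by 1 base, so this pair cannot be counted as separate measurements.

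The 6 rats with the highest miR-1-3p were also the 6 with the highest miR-133a-3p and the 6 with the highest miR-133b-3p. They were male 6 at 600 ppm, male 13 and females 31 and 33 at 1000 ppm, and females 36 and 37 at 1500 ppm. No control was among them, but all of these females were on slide 3, which held no control. For these females dose and slide were therefore not separated. Male 6 was on slide 1 with the control males, and male 13 was on slide 2, whose controls were all female. Among the lowest 6 rats of each of these 3 members, 5 were shared. Only 2 of the highest 6 were also among the 6 highest for miR-499-5p.

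At this scaling the relations of miR-499-5p with the others were lower. With normexp background correction its r with miR-133a-3p was 0.928, above the 0.667 of the miR-133 pair under the same setting. That setting adds an offset of 50 units before scaling. Before scaling, and without it, the kept probes averaged 14.1 to 55.7 units for miR-499-5p and 9.1 to 77.6 for miR-133a-3p. The part of the offset in this r was not tested. As scaled here miR-499-5p correlated with miR-1-3p at r = 0.638 (rho = 0.648, permutation p = 0.00082 for both, adjusted p = 0.0265 for r and 0.0309 for rho) and with miR-133a-3p at r = 0.623 (rho = 0.615, permutation p = 0.00127 and 0.00192, adjusted p = 0.0322 and 0.0462). With miR-133b-3p it had r = 0.567 (rho = 0.561, permutation p = 0.00434 and 0.00561, adjusted p = 0.0645 and 0.0754), which does not pass. On slide 1 these relations were near 0 (r = 0.111, 0.0401 and 0.0631), while on slides 2 and 3 they were between 0.616 and 0.760, with 8 arrays a slide. Without the 2 arrays farthest from the median of miR-1-3p, miR-133a-3p or miR-133b-3p, r with miR-499-5p was 0.565, 0.539 and 0.460. The miR-499-5p level also moved with the intensity percentile of the array (r = 0.516, permutation p = 0.0101, adjusted p = 0.115, and rho = 0.603, permutation p = 0.00228, adjusted p = 0.0468), whose part in these relations was not tested. For the other members r with that percentile lay between -0.0018 and 0.12 and rho between 0.207 and 0.268, with adjusted p between 0.485 and 0.997.

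**Figure D3:**
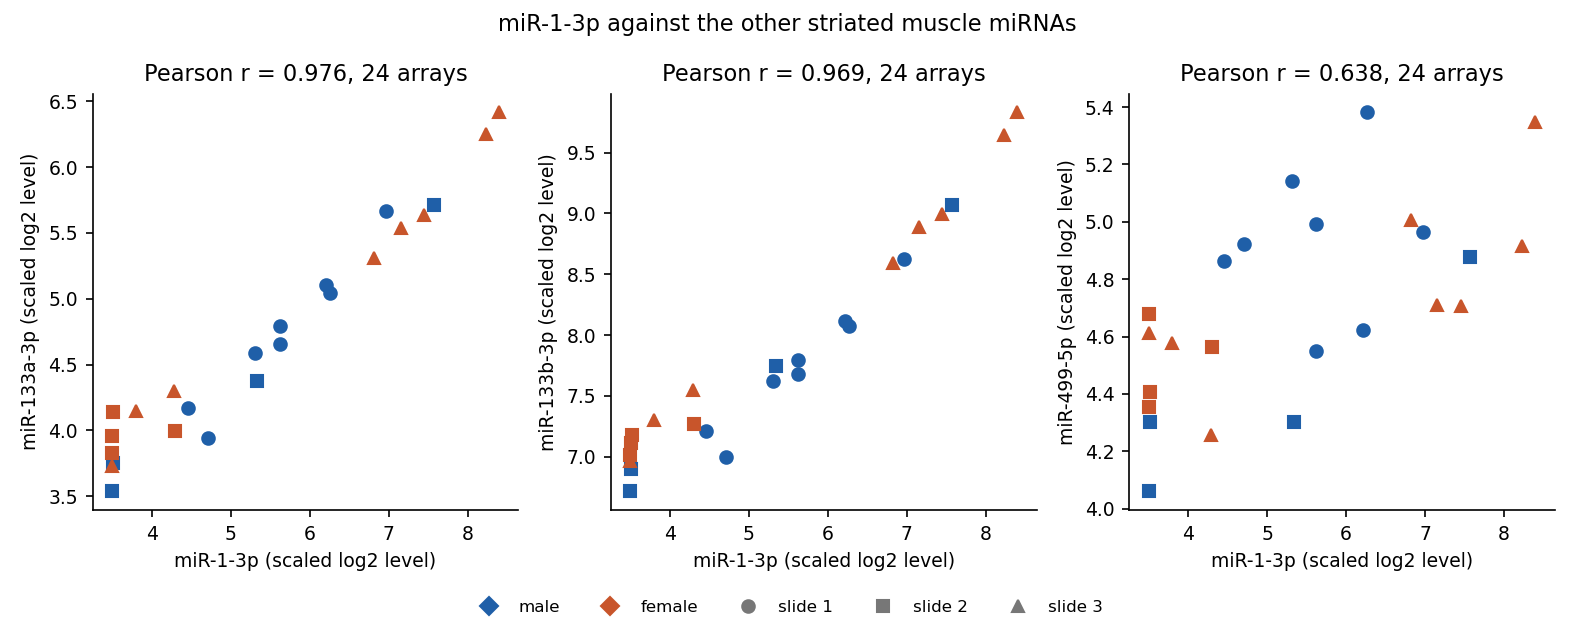
Scaled log2 level of miR-1-3p (horizontal axis) against miR-133a-3p, miR-133b-3p and miR-499-5p (vertical axes), 1 point per rat, coloured by sex and shaped by slide. The points lie close to a line for both miR-133 members (r = 0.976 and 0.969) and scatter widely for miR-499-5p (r = 0.638).

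Outside the members, the miRNAs most like them were found by the highest Pearson r over the 24 arrays. For miR-1-3p these were miR-100-5p (r = 0.740), miR-199a-5p (0.680) and miR-205 (0.661). For miR-133a-3p they were miR-100-5p (0.784), miR-205 (0.745) and miR-34b-3p (0.705), and for miR-133b-3p miR-205 (0.765), miR-100-5p (0.731) and miR-34b-5p (0.727). For miR-499-5p they were miR-374-5p (0.700), miR-1843-3p (0.677, detected on 7 arrays) and miR-10a-3p (0.671). Their rho were between 0.654 and 0.785, the permutation p between 2e-05 and 0.00077 and the adjusted p at most 0.0308, for r and rho alike. Without the 2 arrays farthest from the member's median, r lay between 0.489 and 0.719, and it was between 0.364 and 0.834 within slide 1 and between 0.347 and 0.766 within slide 3. Within slide 2 it lay between 0.211 and 0.777 for all but miR-1843-3p, which was constant there. None reached the correlation between miR-1-3p and the miR-133 members.

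Markers of other lung cells were set against the members in the same way. Of the tested smooth muscle (4), endothelial (2), epithelial (5), leukocyte (4) and erythroid (3) miRNAs, 0 had an adjusted p below 0.05 for r with any member. Each member had 282 relations with other tested miRNAs. Of these, 13 passed for miR-1-3p, 15 for miR-133a-3p, 13 for miR-133b-3p and 26 for miR-499-5p. With so few passing over all miRNAs, a count of 0 in lists this short says little. The highest r with miR-1-3p in these lists was 0.475, of miR-143-3p, a miRNA abundant in smooth muscle. The highest r with miR-499-5p was 0.506, of the red cell miRNA miR-144-3p.

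The design asks whether inhaled hexanal moved these miRNAs. No member passed the test at any dose, where 0% of the 283 miRNAs were called in each comparison at a limma adjusted p below 0.05. At 1000 ppm all 4 members had estimates above 0. miR-1-3p was 1.81 ± 0.88 (log2 difference from control ± SE, 6 rats per group, limma adjusted p = 0.636), miR-133a-3p 0.92 ± 0.45, miR-133b-3p 1.05 ± 0.48 and miR-499-5p 0.37 ± 0.17, with the same adjusted p. Their unadjusted limma p-values were 0.0522, 0.0512, 0.0389 and 0.0353, and 17 of the 283 miRNAs had an unadjusted p below 0.05 in that comparison. The median of the members was 0.99 log2 units, beside -0.01 over all miRNAs tested, or 0.06 without regard to sign. The median SE over all miRNAs was 0.10, below that of each member. miR-1-3p and both miR-133 members moved together from rat to rat, so the members' estimates are not separate measurements. With slide as a block the 4 estimates were 1.27, 0.59, 0.65 and 0.32.

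At 600 ppm the estimates were 0.72, 0.34, 0.37 and 0.10 for miR-1-3p, miR-133a-3p, miR-133b-3p and miR-499-5p, with limma adjusted p = 0.996 for each. At 1500 ppm they were 0.65, 0.23, 0.41 and -0.15, with limma adjusted p between 0.732 and 0.830. At an unadjusted limma p below 0.05, 5 of all miRNAs were found at 600 ppm and 26 at 1500 ppm. The 3 comparisons share the control rats. By mean level the groups ran in the order control, 600 ppm, 1500 ppm, 1000 ppm for miR-133b-3p and control, 1500 ppm, 600 ppm, 1000 ppm for miR-1-3p and miR-133a-3p, while miR-499-5p ran from 1500 ppm through control and 600 ppm to 1000 ppm, and neighbours in each order lay less than 1 within-group SD apart.

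**Figure D4:**
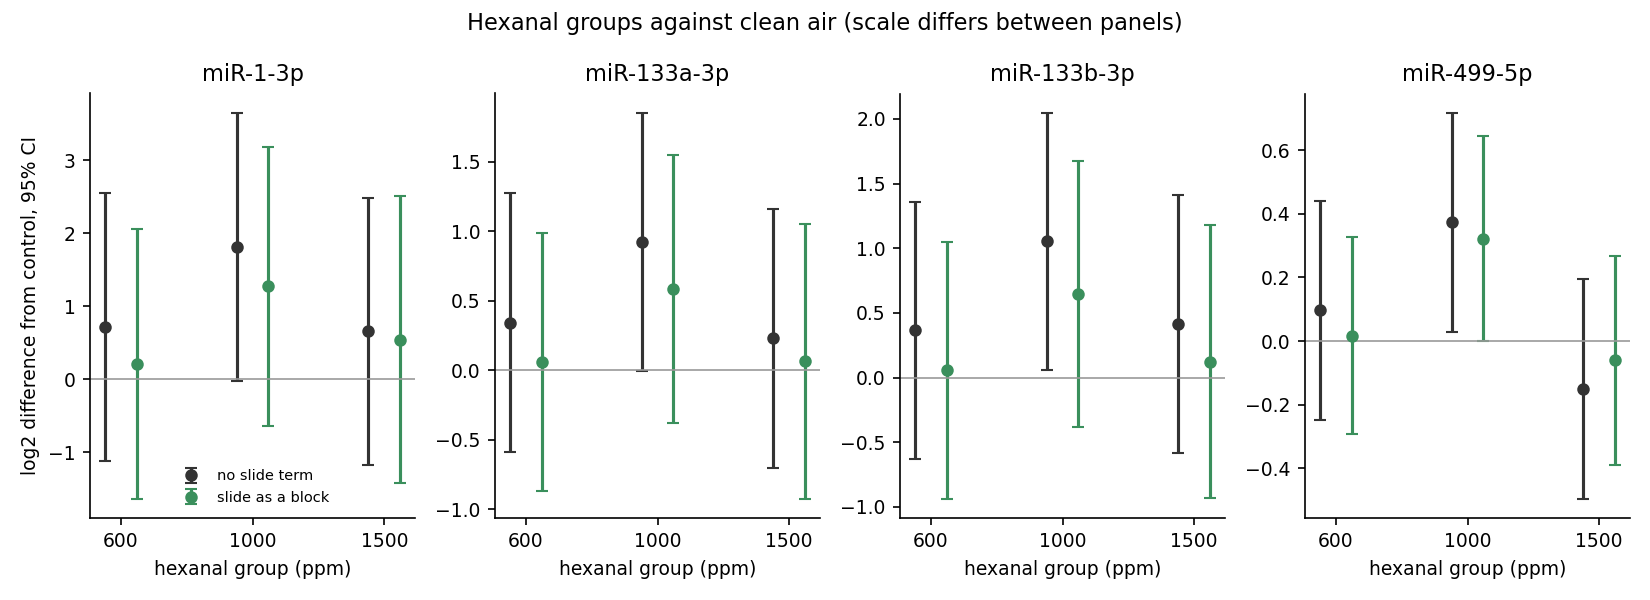
Log2 difference of each hexanal group from control with its 95% confidence interval from limma, without a slide term (black) and with slide as a block (green). The intervals of miR-1-3p span more than 3 log2 units at each dose, and all estimates at 1000 ppm lie above 0.

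The precision limits what these comparisons can show. The 95% confidence interval of the difference at 1500 ppm ran from -1.18 to 2.49 log2 units for miR-1-3p and from -0.58 to 1.41 for miR-133b-3p, but from -0.49 to 0.19 for miR-499-5p. A slope with dose, in log2 units per 1000 ppm, was 0.63 ± 0.58 for miR-1-3p, 0.26 ± 0.30 for miR-133a-3p, 0.39 ± 0.32 for miR-133b-3p and -0.03 ± 0.12 for miR-499-5p (± SE, limma adjusted p between 0.586 and 0.921 over 24 rats). In this limma trend, too, 0% of the miRNAs were called, with 29 at an unadjusted p below 0.05.

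Between the sexes no member was called, and 43.8% of all miRNAs tested were (124 of 283). The SE of this difference lay between 0.12 and 0.64 for the members, beside a median of 0.064 over all miRNAs. The members were thus measured less precisely, and a difference of the usual size could have been missed. The estimates for male minus female were 0.05 for miR-1-3p, -0.16 for miR-133a-3p, -0.32 for miR-133b-3p and 0.07 for miR-499-5p, with limma adjusted p between 0.458 and 0.958. Sex and slide overlapped, and with slide as a block 10 miRNAs were called. Within slide 2, which held 4 males and 4 females, the differences were 1.28, 0.37, 0.46 and -0.12 in the same order, with limma adjusted p between 0.468 and 0.727.

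Splitting the doses by sex gave opposite directions at 1500 ppm. Among males the levels of miR-499-5p were 4.62, 4.86 and 4.99 in the controls and 4.30, 4.30 and 4.06 at 1500 ppm. The difference was -0.60 ± 0.15 (SE, limma adjusted p = 0.0178, 3 rats against 3), in a comparison that called 37.8% of all miRNAs tested. The control males were all on slide 1 and the males at 1500 ppm all on slide 2, so dose and slide cannot be told apart within males. Among females the levels were 4.56, 4.40 and 4.35 in the controls and 4.71, 4.91 and 4.61 at 1500 ppm. The difference there was 0.30 ± 0.22 (limma adjusted p = 0.489), where 0.353% of miRNAs were called, and slide 2 held the controls and slide 3 the exposed females.

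The other members had estimates of the same signs, with wider errors, and did not pass. miR-1-3p at 1500 ppm was -1.31 ± 0.76 in males and 2.62 ± 1.45 in females, and miR-133b-3p was -0.55 ± 0.47 and 1.38 ± 0.76, with limma adjusted p between 0.201 and 0.400. For miR-1-3p the males at 1500 ppm stood at 3.52, 5.34 and 3.50 beside control males at 6.21, 4.46 and 5.62, and the females at 7.45, 8.23 and 3.50 beside control females at 4.30, 3.52 and 3.50. Female 38 thus lay at the floor in a group whose other females were among the 6 highest rats. At 1000 ppm the differences of miR-1-3p were 0.95 ± 0.76 in males and 2.68 ± 1.45 in females, both above 0. Within slide 1, where 2 males at 1000 ppm and 3 at 600 ppm could be set against the 3 control males, they were 0.36 ± 0.76 and 0.34 ± 0.68.

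In the test across all 3 doses of whether the dose differences varied with sex, no member passed, with F = 2.03, 2.02, 1.59 and 4.27 for miR-1-3p, miR-133a-3p, miR-133b-3p and miR-499-5p and limma adjusted p of 0.249, 0.251, 0.340 and 0.0644. In that test 25.1% of all miRNAs were called. Taken at 1500 ppm alone, a comparison added after the values were seen, the male difference of miR-499-5p minus the female difference was -0.91 ± 0.28 (limma adjusted p = 0.0163, with 35.3% of miRNAs called), and those of the other members had adjusted p between 0.0751 and 0.106. With slide as a block the same value was -0.57 ± 0.51 (limma adjusted p = 0.830) and 0% of miRNAs were called.

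**Figure D5:**
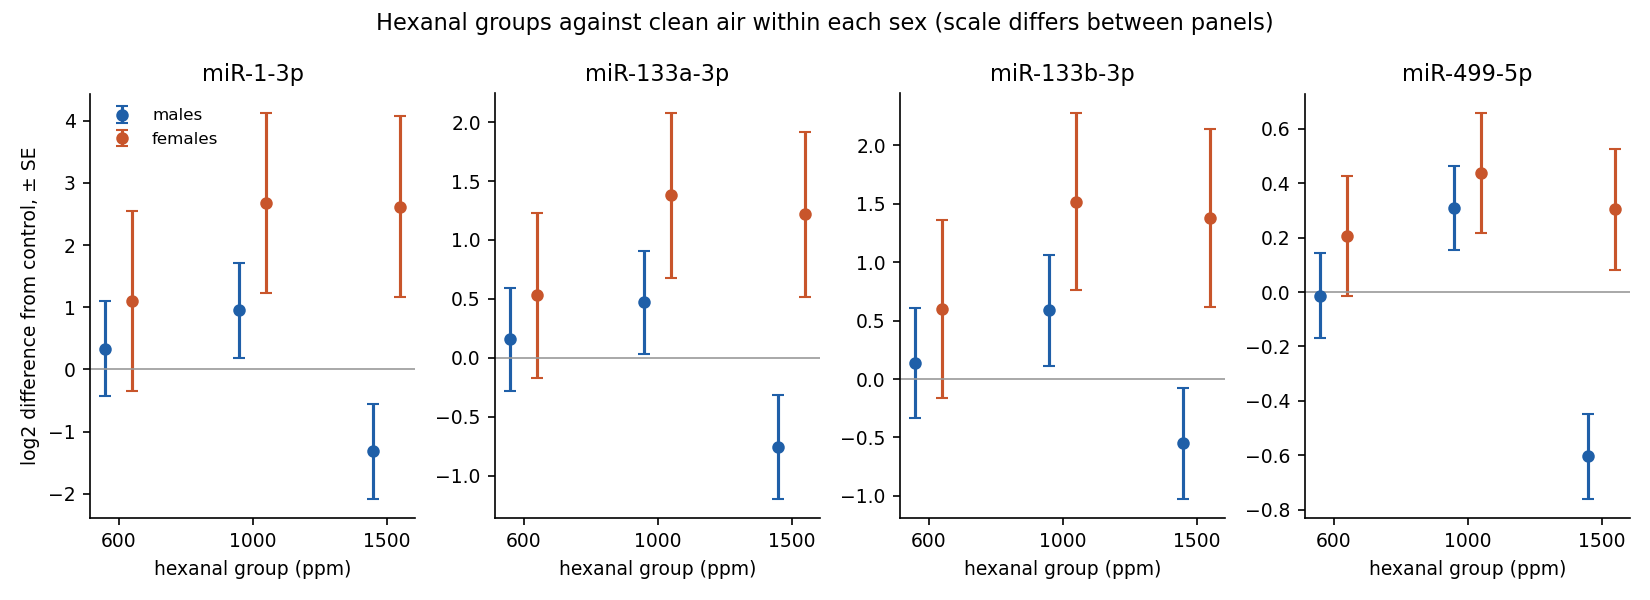
Log2 difference from control within males (blue) and within females (orange) at each hexanal dose, with its SE from limma fits of 12 rats each. At 1500 ppm the male estimates of all 4 members lie below 0 and the female estimates above 0, and in both sexes the controls and the rats at 1500 ppm were on different slides.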

How the data were processed

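The labels group 24 lung samples by hexanal exposure. RNA was extracted with Trizol and 100 ng was labelled for each Agilent rat miRNA array. The deposited scanner files hold background-subtracted intensity values from Feature Extraction 11.5.1.1, not yet scaled between arrays. The deposited series table holds the total gene signal as intensity, unscaled, with 58.7% of values set to 1. It was used only as an alternative. Control spots and outlier spots were dropped, and each array was scaled so that the 75th percentile of 394 probes, those detected above background on every array, was the same. Values were floored (11.3 intensity units) and taken to log2, and spots were averaged per probe and probes per miRNA. Probes well above background on at least 6 arrays were kept, which left 283 miRNAs. A miRNA was called detected on an array when most spots of at least 1 of its probes were well above background there. Tests used limma 3.58.1 in R 4.3.3 with Benjamini-Hochberg adjustment over the 283 miRNAs, and were tested on simulated data. Correlations across rats used permutation. Named miRNAs were the members, the listed striated muscle miRNAs and, for each member, the 3 others with the highest r. The members and lists were chosen with earlier results of these data known. The comparisons within sexes and within slides were added after the data were seen. Signal over background and the number of arrays limit the precision.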

Additional observations from a re-analysis of the deposited data

Results flagged for a closer look

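The change of miR-499-5p at 1500 ppm ran in opposite directions in the sexes. Each of the 3 males at 1500 ppm lay below the mean of the control males and each of the 3 females above the mean of the control females. The male difference minus the female difference was -0.91 log2 units (limma adjusted p = 0.0163), in a comparison that called 35.3% of all miRNAs tested. Once the slide entered the model the limma adjusted p became 0.830, and 0% of miRNAs were called. The sexes at 1500 ppm were on different slides, so sex and slide cannot be told apart there. In both sexes the controls were also on another slide than the rats at 1500 ppm, so each dose difference is a slide difference too. In every group of 6 rats the highest and lowest level of each member was also compared with the rest for a rat far from the others. Of these 16 sets of values, 0 held such a rat, where chance gives 0.8.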

How the results depend on the processing

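No paired analysis was possible because the groups share no replicate numbers. Of 1176 alternative values, 1097 were counted as the same as the main result. For an estimate or correlation of a member this meant the same sign and the same side of the threshold. For a count of called miRNAs it meant a count of similar size. For a within-group SD it meant a change smaller than the SD itself, which is a loose rule, and the F of the interaction cannot turn sign. Of the others, 44 were estimates whose sign turned, and the cause was not tested.

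For miR-499-5p the dose difference was -0.0496 at 600 ppm with the series table and -0.0129 in males only (the same within slide 1), -0.0196 at 1000 ppm and 0.0193 at 1500 ppm with normexp on the median spot signal, and 0.304 at 1500 ppm in females only. Its dose slope was 0.00121 with quantile normalization, 0.0592 with the strict filter and with the brightest probe, 0.0188 with slide as a block and 0.0107 when the block was random. In males only at 1500 ppm the differences were -1.31 for miR-1-3p, -0.756 for miR-133a-3p, -0.549 for miR-133b-3p and -0.604 for miR-499-5p, the last with limma adjusted p = 0.0178. For miR-133a-3p the 1500 ppm difference was -0.0804 with the series table.

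Male minus female was -0.147 for miR-499-5p with the strict filter and with the brightest probe. With normexp it was -0.275 for miR-499-5p and -0.409 for miR-1-3p, and for miR-133a-3p it was 0.0532 with the series table. With slide as a block miR-133a-3p, miR-133b-3p and miR-499-5p had 0.390, 0.473 and -0.309, as a random block 0.111, 0.0707 and -0.116, and within slide 2 0.365, 0.463 and -0.116. Within slide 2 the males and females were of different dose groups.

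Counts of called miRNAs rose from 0 to 1 at 1500 ppm with the series table and in females only, to 107 in males only, and to 1 at 600 ppm in males only and within slide 1. In the trend the count was 1 with the total gene signal and with the series table, and 3 with sex as a covariate. Between the sexes the count fell from 124 to 77 with no filter, 52 with the series table, 5 with normexp, 10 with slide as a block, 0 with slide as a random block and 20 within slide 2. For the dose by sex interaction of miR-499-5p, F was 4.81 with the lower floor (limma adjusted p = 0.0477) and 6.15 with the series table (0.0391).

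The correlations of miR-1-3p were 0.974 and 0.952 with miR-133a-3p and 0.977 and 0.978 with miR-133b-3p within slides 1 and 2, and that of the miR-133 pair 0.993 within slide 2, none past the threshold after adjustment with 8 arrays. Those of miR-499-5p within slides 1, 2 and 3 were 0.111, 0.616 and 0.748 with miR-1-3p and 0.0401, 0.748 and 0.760 with miR-133a-3p. Under normexp, added after the data were seen, the order of the correlations turned: miR-133a-3p had r = 0.928 with miR-499-5p, 0.838 with miR-1-3p and 0.667 with miR-133b-3p, while miR-133b-3p had 0.951 with miR-1-3p and 0.367 with miR-499-5p, and miR-1-3p had 0.607 with miR-499-5p. The offset of 50 units in this setting is large beside the dim members, and its part in these r was not tested. The within-group SD of miR-1-3p ranked 1 under each of 6 other ways of processing, while that of miR-133a-3p ranked between 4 and 49 and that of miR-133b-3p between 3 and 22.

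Leaving out each rat in turn, the 1500 ppm difference of miR-133a-3p lay between -0.111 (without female 37) and 0.432, and the slope of miR-499-5p between -0.0819 and 0.0361, above 0 without any 1 of the 3 males at 1500 ppm. Male minus female lay between -0.219 and 0.369 for miR-1-3p and between -0.280 and 0.0139 for miR-133a-3p. The trend called between 0 and 2 miRNAs, 2 without control female 22 or 23. F of the miR-499-5p interaction lay between 2.90 and 7.03, with a limma adjusted p of 0.0472 without male 8 or female 27 at 600 ppm, 0.0366 without female 28, 0.0407 without male 13 at 1000 ppm and 0.0203 without female 33. Levels near background limit miR-1-3p and miR-133a-3p most.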
